A study of Homo sapiens with 6 samples.

Results

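Plasma membrane amino acid transporters are described here as a set of 10 genes chosen by name, SLC7A11, SLC7A5, SLC3A2, SLC1A4, SLC1A5, SLC7A1, SLC38A1, SLC38A2, SLC6A9 and SLC7A3. All 10 symbols were present among the 23710 gene symbols with deposited counts. The series, on a small molecule that activates the tumour suppressor TET2 by its title, holds 6 libraries of messenger RNA from K562, a human chronic myelogenous leukaemia cell line that expresses erythroid genes. In 3 libraries the cells had received 20 µM 3FM-dC together with 2 mM THU for 24 h, and in the other 3 only DMSO, in which both compounds are dissolved. All cells were K562 at passages 13 to 16 in medium with 10% serum. What 3FM-dC did and what THU did cannot be told apart, because no library had either alone, and both names are given only in this short form. Nothing in the labels ties the replicates to cultures grown apart, and the p-values then speak only of the spread among these libraries, which can be technical.

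Amino acids are too polar to cross the lipid bilayer, and cells import them through carrier proteins of several solute carrier (SLC) families. Some carriers use the sodium gradient to concentrate an amino acid inside the cell, and others exchange one amino acid for another. Transcripts of many of these carriers are known to be raised by the transcription factor ATF4, which is made when the kinases of the integrated stress response phosphorylate the initiation factor eIF2. In erythroid and leukaemic cells, uptake of glutamine, leucine, glycine and cystine feeds protein, haem and glutathione synthesis.

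Every tested member had more transcripts in cells given 3FM-dC plus THU than in DMSO cells. Expression was measured as CPM, the counts of a gene scaled to library size after TMM scaling of the libraries, and a gene counted as changed at a Benjamini-Hochberg adjusted p under 0.05 in edgeR's quasi-likelihood test over all 12339 genes that passed a filter on low counts. Of the 10 members 9 passed that filter, and SLC7A3 did not. The 9 had at least 324 counts in each DMSO library, so none passed through the treated libraries alone. All 9 rose, against 33.8% of all tested genes, and 6 of them rose at least 2-fold, against 10.2%. None fell, against 32.7% of tested genes lower and 2.46% lower by at least 2-fold, and 66.4% of tested genes changed in either direction. The median log2 fold change of the 9 was 1.35, against 0.01 over all tested genes. The members were chosen with earlier results of these data known, so their common direction is not independent evidence. With libraries scaled by total counts, the genes that changed split into 5048 higher and 3189 lower, against 4167 higher and 4031 lower with TMM, and the 9 members all rose under either scaling. The CPM of all treated libraries lay above that of all DMSO libraries for each of the 9, which held for 35.5% of tested genes.

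Summed over the 10 members, expression was 2217, 2217 and 2168 CPM in the DMSO libraries 1, 2 and 3, and 4166, 4109 and 4281 CPM after treatment. The groups thus did not overlap, and the mean went from 2201 ± 28.5 to 4185 ± 88.0 CPM (SD, n = 3). SLC7A5 made up 34.8% of this gain in CPM, SLC3A2 17.2% and SLC38A2 11.5%. SLC1A4 and SLC7A11, with the largest fold changes of the tested members, made up 6.55% and 5.70%.

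**Figure D1:**
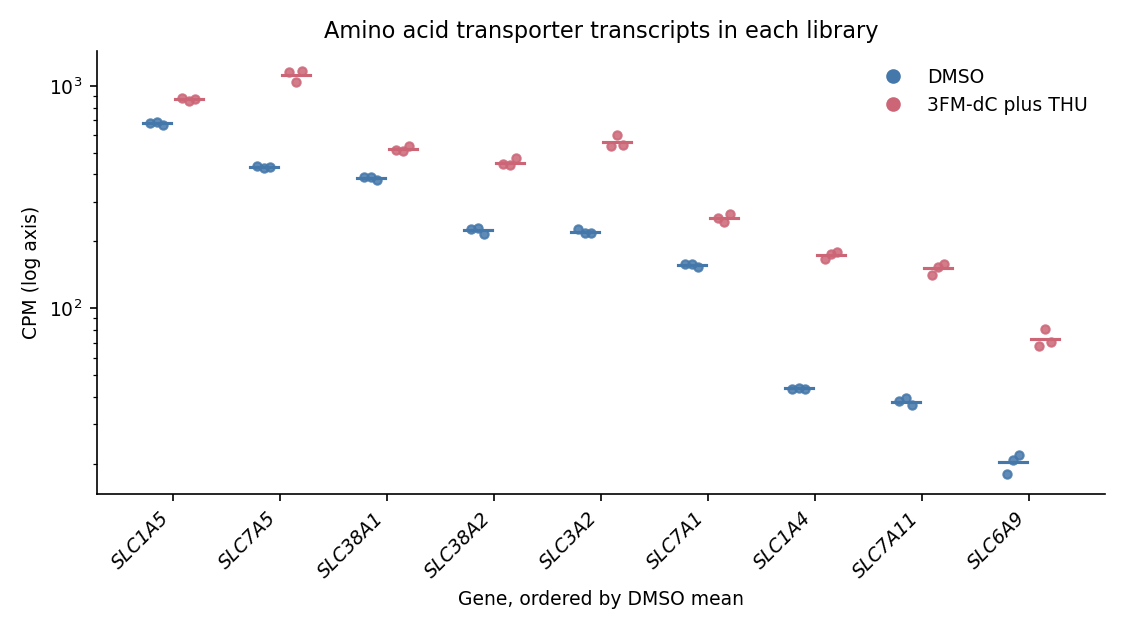
CPM of the 9 tested members in each library on a log axis, with points for the 3 DMSO and 3 treated libraries and lines for the group means. The treated points lie above the DMSO points for every gene, from SLC1A5 (mean 679.6 to 872.7 CPM) to SLC6A9 (20.2 to 72.9 CPM).

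Counts assigned to genes ranged from 18408826 to 22750278 per library. The erythroid identity of the line was visible in all libraries, and its 8 markers, among them the globins HBE1, HBG1, HBG2 and HBZ and the regulators GATA1 and KLF1, all fell with treatment, against the 32.7% above. Their summed level was 6997 to 7178 CPM in DMSO and 3498 to 3687 CPM in treated libraries. HBG1 and HBG2 are near-identical and can share reads. Whether this loss of erythroid transcripts has a part in the transporter changes was not tested, and in bulk RNA fewer cells of a type and less RNA per cell cannot be told apart. Among the 14 markers of other cell types, MS4A1, CDH5, KRT5 and KRT14 were at 0 in all libraries. The lymphoid markers summed to between 7.87 and 11.3 CPM per library and the fibroblast and endothelial markers to between 6.28 and 10.4 CPM, with COL1A1 higher (0.361 to 1.28 CPM) and COL1A2 lower (8.26 to 5.72 CPM). COL1A1 rests on 20 counts in DMSO and 80 in treated libraries. COL1A2 overlapped between groups and was not called under 3 of 13 alternatives of the fit. EPCAM, an epithelial marker, was measured at 102 ± 0.708 CPM in DMSO and fell to 62.0 ± 1.52 CPM, while CDH1 had 0 counts in DMSO and 1 in the treated libraries.

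Because members rose together, the stretches around their transcription starts were searched for sequences that known regulators of amino acid transport recognise. The C/EBP-ATF response element (CARE), bound by ATF4 with C/EBP partners, was searched as TGATGNAA, the antioxidant response element (ARE), bound by NRF2, as TGACNNNGC, and the E-box of MYC and related factors as CACGTG, on both strands. The windows ran from 250 bases before to 50 bases after each start, from RefSeq on GRCh38.p14, and covered 8 of the 10 members with 14 windows. SLC7A11 and SLC7A3 had no window and were not searched, so nothing is known here of motifs near their starts. A CARE match was present in 1 window each of 5 members, an ARE match in SLC1A5, SLC3A2, SLC7A1 and SLC7A5, and an E-box in SLC1A5 and SLC7A5. SLC38A2 and SLC6A9 had none of the 3. Among all 35116 windows of that length, 3.62% held a CARE match, 13.3% an ARE match and 7.26% an E-box. Counted by gene, over 27305 genes, the shares were 4.46%, 16.1% and 8.77%. A gene with more windows has more chances of a match. These are matches of letters and not measured binding, and the genome build of the counts was hg19, so coordinates serve only to locate the sequences.

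The 5 CARE matches are shown here as an example of the 3 motifs. The transcript of ATF4 rose in these cells (log2 fold change 1.21), and so did NFE2L2, which encodes NRF2 (0.75). CARE matches lay in SLC1A4 (log2 fold change 1.99), SLC3A2 (1.35), SLC7A1 (0.70), SLC38A1 (0.44) and SLC1A5 (0.36). No CARE match lay in the windows of SLC6A9 (1.85), SLC7A5 (1.38) or SLC38A2 (1.01). Whether ATF4, NRF2 or these matches have a part in the rises was not tested. Each stretch of 30 bases reads 5′ to 3′ on the strand of the gene, with the match in capitals.
SLC1A4, chr2:64989381-64989410: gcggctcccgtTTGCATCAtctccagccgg
SLC3A2, chr11:62881719-62881748: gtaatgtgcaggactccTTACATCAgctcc
SLC7A1, chr13:29595663-29595692: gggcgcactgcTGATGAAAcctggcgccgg
SLC38A1, chr12:46266502-46266531: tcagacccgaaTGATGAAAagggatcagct
SLC1A5, chr19:46784893-46784922: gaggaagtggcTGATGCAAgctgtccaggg
In SLC1A4 and SLC3A2 the match lies on the strand opposite to the gene and reads TTGCATCA and TTACATCA. In SLC1A4 it covers the start itself, in the innermost of 3 starts of SLC3A2 it begins 38 bases and in SLC7A1 8 bases into the transcript, counted from 1 at the start. The SLC38A1 match begins 4 bases before the start of 1 of 2 annotated windows, and the SLC1A5 match 97 bases before the innermost of 3 starts. Whether K562 cells use these particular starts was not tested.

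SLC3A2 encodes the CD98 heavy chain, a single-pass glycoprotein that carries transporter light chains to the cell surface through a disulphide bond. Its CPM was 227.2, 217.6 and 218.7 in DMSO, and 537.8, 605.2 and 545.3 in treated replicates 1, 2 and 3. The treated values were all far above the DMSO values, with replicate 2 the highest. SLC3A2 rose 2.54-fold (log2 fold change 1.35, SE 0.04, edgeR adjusted p = 1.71e-21).

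SLC7A5 is the light chain that exchanges intracellular glutamine for leucine and other large neutral amino acids. Its CPM was 437.9, 426.8 and 431.7 in DMSO and 1155, 1042 and 1170 in treated replicates 1, 2 and 3. It became the member with the most CPM, and treated replicate 2, the highest for SLC3A2, was the lowest for SLC7A5. SLC7A5 rose 2.60-fold (log2 fold change 1.38, SE 0.04, edgeR adjusted p = 1.38e-22). Its upstream sequence is shown because this gene added the most CPM. The 250 bases before its start (chr16:87869508-87869757, minus strand) hold the E-box in capitals, 130 bases before the start. The last 2 capitals begin an ARE match, TGACGCAGC, that continues across the start.
SLC7A5: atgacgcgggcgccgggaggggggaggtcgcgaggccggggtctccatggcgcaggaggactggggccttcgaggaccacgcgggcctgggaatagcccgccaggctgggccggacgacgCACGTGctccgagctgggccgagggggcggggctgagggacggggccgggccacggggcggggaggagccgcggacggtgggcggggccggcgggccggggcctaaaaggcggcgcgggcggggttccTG

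SLC7A11 is the light chain of the cystine and glutamate exchanger, which brings in cystine for glutathione. Its CPM was 38.04, 39.4 and 36.5 in DMSO and 140.9, 153.4 and 158.9 in treated replicates. The lowest treated library was thus more than 3 times the highest DMSO library. SLC7A11 rose 3.98-fold (log2 fold change 1.99, SE 0.06, edgeR adjusted p = 2.13e-22), which ranked it 454 of 12339 tested genes by fold change. The antisense gene SLC7A11-AS1, which overlaps 8.97% of its exons in GENCODE 29, had between 0 and 7 counts in a library.

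The ratio of a light chain to the heavy chain within a library does not depend on how libraries are scaled. There were 1.93, 1.96 and 1.97 SLC7A5 counts per SLC3A2 count in DMSO and 2.15, 1.72 and 2.15 in treated replicates. The groups overlapped, and the log2 ratio differed by 0.03 (SE 0.11, exact permutation p = 1, two-sided). This does not show that the ratio was equal, since the treated replicates spread on both sides of the DMSO values, and the difference was below 0 without treated replicate 1 (-0.0240) or 3 (-0.0236). There were 0.167, 0.181 and 0.167 SLC7A11 counts per SLC3A2 count in DMSO and 0.262, 0.254 and 0.291 in treated replicates. All treated ratios lay above all DMSO ratios. The difference in log2 ratio was 0.64 (SE 0.07, exact permutation p = 0.1, adjusted p = 0.12 over 6 pairs), and 0.1 is the smallest p that 3 libraries against 3 can give. SLC7A11 relative to SLC7A5 moved by 0.62 (SE 0.09) with the same p-values and no overlap. By counts, then, SLC7A11 gained on its heavy chain and on the other light chain, while SLC7A5 and SLC3A2 rose by similar folds.

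**Figure D2:**
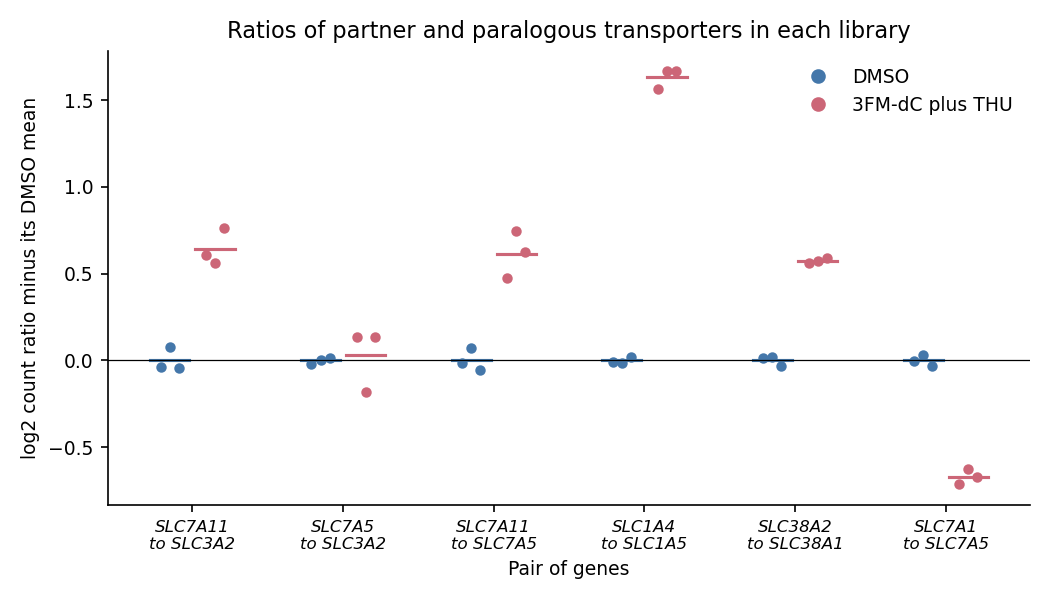
Log2 ratio of counts for 6 pairs of members in each library, minus the DMSO mean of that pair, with lines for group means. The treated points overlap the DMSO points for SLC7A5 to SLC3A2 and lie apart from them for the other 5 pairs, from -0.67 (SLC7A1 to SLC7A5) to 1.63 (SLC1A4 to SLC1A5). The pairs were chosen with earlier results of these data known. Ratios of other gene pairs were not computed, so how often pairs lie apart in general is not known.

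Of the other light chains known to pair with SLC3A2, SLC7A6 and SLC7A8 fell, while SLC7A7 and SLC7A10 had too few counts to read. SLC7A6, which exchanges arginine for neutral amino acids, fell from 141 ± 3.75 to 102 ± 10.2 CPM (log2 fold change -0.46, SE 0.05, edgeR adjusted p = 1.59e-08). SLC7A8, a second large neutral amino acid exchanger, fell from 31.3 ± 2.13 to 24.1 ± 2.17 CPM (-0.37, SE 0.08, adjusted p = 0.000231), a call that was lost under 1 of 13 alternatives, a minimum fold change of 1.2 (adjusted p = 0.0731, range 8.31e-06 to 0.0731). SLC7A7, with 21 counts in DMSO and 34 in treated libraries, had 0.369 ± 0.161 and 0.552 ± 0.113 CPM (log2 fold change 0.59, SE 0.52, edgeR adjusted p = 0.327). SLC7A10 had 0 counts in DMSO and 1 in the treated libraries. Per kb of exons, the summed level of these 6 light chains went from 119 ± 1.504 to 270 ± 15.6 CPM per kb. SLC7A5 made up 76.6% ± 0.617 of that sum in DMSO and 87.6% ± 0.473 in treated libraries, SLC7A11 3.31% ± 0.127 and 5.82% ± 0.513, and SLC7A6 15.6% ± 0.403 and 4.99% ± 0.236. This group of light chains was put together after their values had been seen, and its shares carry no test.

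**Figure D3:**
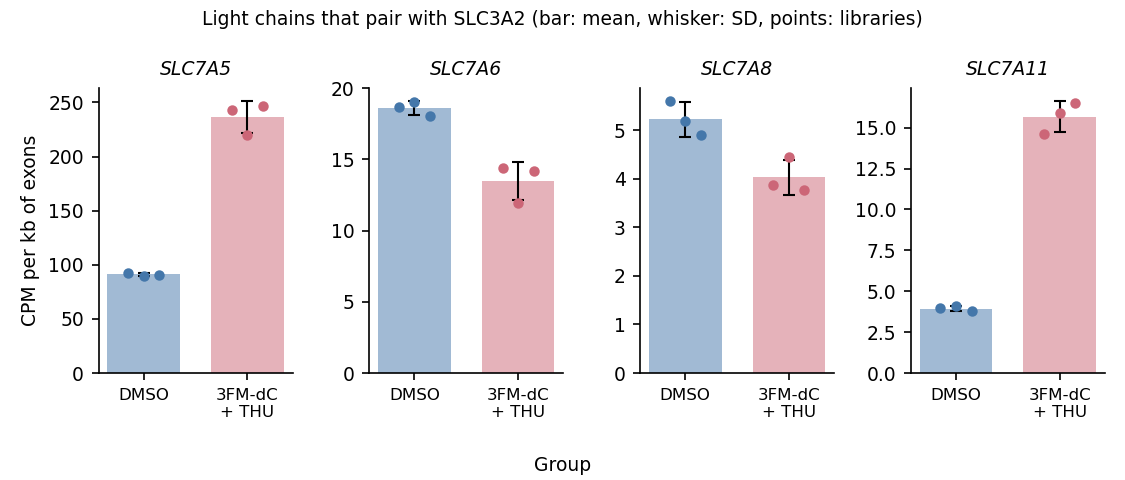
CPM per kb of exons of the 4 light chains above 1 CPM per kb that pair with SLC3A2, as means (bars) with SD (whiskers) and single libraries (points), each panel on its own axis from 0. SLC7A5 and SLC7A11 were higher and SLC7A6 and SLC7A8 lower in all treated libraries than in all DMSO libraries.

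SLC1A4 and SLC1A5 are sodium-dependent exchangers of small neutral amino acids, of which SLC1A4 prefers serine, alanine and cysteine and SLC1A5 is a main route for glutamine. SLC1A4 had 43.2, 43.9 and 43.5 CPM in DMSO and 167.4, 174.5 and 178.6 CPM in treated replicates. Its DMSO values were the closest to each other of all members in relative terms, with an SD of 0.836% of the mean. SLC1A4 rose 3.98-fold (log2 fold change 1.99, SE 0.05, edgeR adjusted p = 1.10e-23). SLC1A5 had 678.7, 691.4 and 668.7 CPM in DMSO and 881.4, 858.5 and 878.3 CPM in treated replicates. An antisense gene overlaps 23.4% of its exons in GENCODE 29. The groups did not overlap, but the rise was the smallest of the 9, at 1.28-fold (0.36, SE 0.03, edgeR adjusted p = 3.95e-11). Within libraries, SLC1A4 counts were 0.0641 ± 0.000857 of SLC1A5 counts in DMSO and 0.199 ± 0.00776 in treated cells. The log2 ratio moved by 1.63 (SE 0.03, exact permutation p = 0.1, adjusted p = 0.12), the largest shift of the 6 pairs.

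The upstream sequence of SLC1A4 is printed for the gene that, with SLC7A11, had the largest rise. The 250 bases before its inner start (chr2:64989149-64989398, plus strand) end in 7 of the 8 bases of the CARE match, in capitals, and the last base of the match is the start itself.
SLC1A4: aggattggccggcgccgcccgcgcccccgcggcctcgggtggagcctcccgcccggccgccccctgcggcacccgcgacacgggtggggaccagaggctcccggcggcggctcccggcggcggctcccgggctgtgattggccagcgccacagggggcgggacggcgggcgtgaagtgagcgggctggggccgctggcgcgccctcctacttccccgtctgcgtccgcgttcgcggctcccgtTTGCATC

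SLC38A1 and SLC38A2 are sodium-coupled carriers that accumulate glutamine, alanine and other small neutral amino acids, and SLC38A2 is known to be induced when amino acids run short. SLC38A1 had 387.7, 389.1 and 377.8 CPM in DMSO and 516.0, 509.0 and 539.7 CPM in treated replicates. SLC38A2 had 227.9, 229.2 and 215.1 CPM in DMSO and 443.7, 439.9 and 473.4 CPM in treated replicates. Neither gene overlapped between groups. SLC38A2 rose 2.02-fold (log2 fold change 1.01, SE 0.04, edgeR adjusted p = 4.26e-19) and SLC38A1 1.36-fold (0.44, SE 0.03, adjusted p = 5.43e-12). Counts of SLC38A2 were 0.582 ± 0.0110 of those of SLC38A1 in DMSO and 0.867 ± 0.00904 in treated cells. The shift of 0.57 in log2 ratio (SE 0.02, exact permutation p = 0.1, adjusted p = 0.12) had the smallest error of the 6 pairs. The 250 bases upstream of the SLC38A2 start (chr12:46372774-46373023, minus strand) are shown as a member that rose with none of the 3 motifs in its window. That says only that these letters are not in this stretch.
SLC38A2: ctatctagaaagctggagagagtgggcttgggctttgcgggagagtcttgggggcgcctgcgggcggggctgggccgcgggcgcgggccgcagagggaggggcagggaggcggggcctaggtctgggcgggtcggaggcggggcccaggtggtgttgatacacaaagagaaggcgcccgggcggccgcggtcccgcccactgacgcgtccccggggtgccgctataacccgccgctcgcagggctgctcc

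SLC7A1 takes up arginine, lysine and ornithine and works without SLC3A2. It had 158.6, 158.8 and 153.7 CPM in DMSO and 255.8, 245.2 and 266.5 CPM in treated replicates, again without overlap. SLC7A1 rose 1.63-fold (log2 fold change 0.70, SE 0.04, edgeR adjusted p = 5.69e-15). Relative to SLC7A5 it lost ground, with 0.363 ± 0.00811 SLC7A1 counts per SLC7A5 count in DMSO and 0.228 ± 0.00693 in treated cells (log2 ratio -0.67, SE 0.03, exact permutation p = 0.1, adjusted p = 0.12).

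SLC6A9 is a glycine transporter driven by sodium and chloride, and glycine is the amino acid from which haem synthesis starts. It had 18.0, 20.8 and 22.0 CPM in DMSO and 67.8, 80.7 and 70.2 CPM in treated replicates. Its replicates spread the most of the 9 tested members, with an SD of 10.1% of the mean in DMSO and 9.43% in treated libraries, but the groups lay far apart. SLC6A9 rose 3.59-fold (log2 fold change 1.85, SE 0.08, edgeR adjusted p = 3.51e-18). CCDC24 on the opposite strand overlaps 7.83% of its exons in GENCODE 29 and had 34 to 57 counts in a library.

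SLC7A3, a carrier of cationic amino acids found mainly in brain, was close to silent. It had 0, 0 and 1 counts in DMSO and 4, 8 and 11 in treated replicates. All treated libraries held more counts than any DMSO library. Treated replicate 1, at 0.205 CPM, was near the floor of 3 counts per library, 0.136 to 0.168 CPM. Treated replicates 2 and 3, at 0.381 and 0.515 CPM, were above it but still low. The ratio of summed counts, 23 against 1, was 22.9 after correction for library size, with an exact 95% binomial interval of 3.72 to 944 that covers counting error only. It was called higher by the tests that kept it, edgeR without a filter (adjusted p = 0.00146) and DESeq2 (adjusted p = 0.0101). These calls rest on 23 counts against 1, in a gene chosen with earlier results of these data known.

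**Figure D4:**
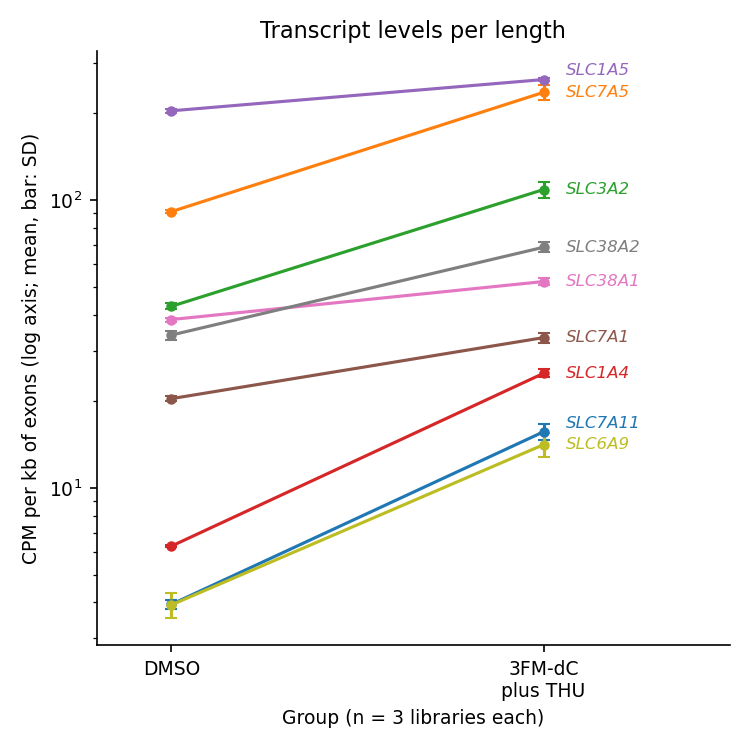
CPM per kb of exons (log axis) for the 9 tested members in DMSO and treated cells, as means of 3 libraries with SD. The lines of SLC38A1 and SLC38A2 cross, and SLC7A5 comes close to SLC1A5.

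Levels of different genes were compared per kb of annotated exons, with exon lengths from GENCODE 29 on GRCh38. In DMSO cells the order was SLC1A5 at 204 ± 3.42 CPM per kb, SLC7A5 at 91.1 ± 1.17, SLC3A2 at 42.7 ± 1.01, SLC38A1 at 38.4 ± 0.620, SLC38A2 at 33.9 ± 1.18, SLC7A1 at 20.4 ± 0.376, SLC1A4 at 6.28 ± 0.0524, SLC7A11 at 3.94 ± 0.151, SLC6A9 at 3.92 ± 0.398 and SLC7A3 at 0.00668 ± 0.0116. By this length, only SLC7A11 and SLC6A9 of these neighbours overlapped between libraries. In treated cells SLC1A5 still led at 262 ± 3.73 CPM per kb, followed by SLC7A5 at 236 ± 14.7 and SLC3A2 at 109 ± 7.13. SLC38A2, at 68.5 ± 2.78, passed SLC38A1, at 52.1 ± 1.61. SLC7A11 and SLC6A9, at 15.7 ± 0.955 and 14.1 ± 1.33, again overlapped, and the other neighbours did not. The largest gain per kb was that of SLC7A5 (145 CPM per kb), then SLC3A2 (66.0) and SLC1A5 (58.0). The place of SLC3A2 depends on the length used. With its longest transcript in place of all exons its level was 99.5 CPM per kb in DMSO and 253 in treated cells, where SLC7A5 had 95.2 and 247. By that length SLC3A2 lay above SLC7A5 in all DMSO libraries, but in treated cells the genes overlapped, with SLC3A2 at 242, 272 and 245 CPM per kb and SLC7A5 at 254, 229.6 and 257.9 in replicates 1, 2 and 3, so that only replicate 2 had SLC3A2 higher. By the longest transcript SLC6A9 (6.47 and 23.3) also came before SLC7A11 (3.94 and 15.7). By that length SLC38A1 (46.8 to 48.2) and SLC38A2 (44.0 to 46.9) overlapped in DMSO libraries.

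Among other plasma membrane amino acid transporters more fell than rose. Of 30 other plasma membrane amino acid transporters, 9 were tested, of which 2 rose, 6 fell and SLC7A7 did not pass, while 10 had no count in any library. The list and the members were both chosen with earlier results of these data known, so the contrast between them is not independent evidence. The 6 that fell are set against 32.7% of tested genes lower, and the median log2 fold change of the 9 was -0.46. That median turns with the filter on low counts. Without a filter it was 0.53 over 20 genes, 4 of them higher and 6 lower, and with DESeq2 it was -0.22 over 12 genes, 3 of them higher and 6 lower. Their summed level over all 30 went from between 687 and 695 CPM in DMSO to between 411 and 477 CPM in treated libraries, without overlap. SLC38A5, a glutamine and histidine carrier of the same family as SLC38A1 and SLC38A2, fell 2.19-fold from 277 ± 6.09 to 127 ± 11.3 CPM (log2 fold change -1.13, SE 0.05, edgeR adjusted p = 4.39e-18). SLC6A6, the taurine transporter, fell from 178 ± 2.55 to 95.8 ± 12.5 CPM (-0.90, SE 0.06, adjusted p = 7.29e-14). SLC6A19 and SLC36A4, with under 10 CPM, fell by 0.59 and 0.51 on the log2 scale. SLC43A1 and SLC43A2, uniporters of branched-chain and aromatic amino acids, rose from 33.9 ± 1.02 to 64.2 ± 1.99 CPM (0.92, SE 0.06, adjusted p = 1.24e-13) and from 15.1 ± 1.19 to 21.5 ± 0.733 CPM (0.51, SE 0.09, adjusted p = 2.66e-05). Within families, SLC38A2 rose and SLC38A5 fell, and SLC7A5 rose and SLC7A6 fell, while SLC1A4 and SLC1A5 both rose, as did SLC43A1 and SLC43A2. Over all tested genes 33.8% were higher and 32.7% lower, so mixed directions alone do not mark out these families.

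**Figure D5:**
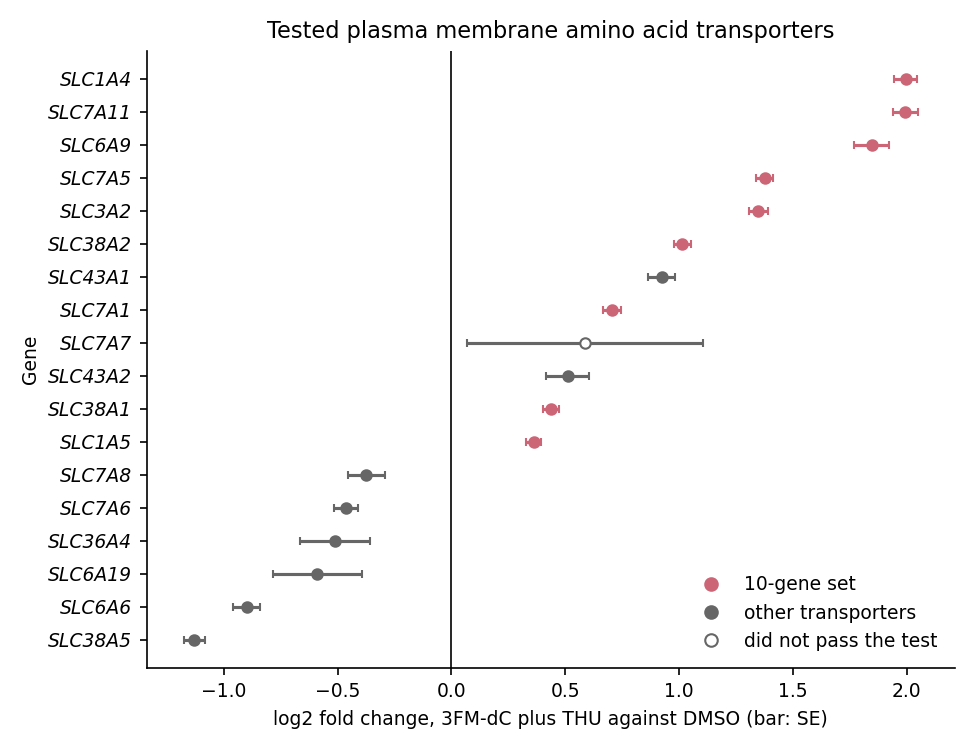
Log2 fold change with SE of the 9 tested members (red) and the 9 tested other plasma membrane amino acid transporters (grey, open where the test was not passed). The members lie between 0.36 and 1.99, and the other transporters between -1.13 (SLC38A5) and 0.92 (SLC43A1).

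Transporters of the lysosomal membrane, which return amino acids from protein breakdown to the cytosol, moved little. Of 8 listed, 6 were tested, of which SLC38A9, PQLC2 and CTNS were called higher and SLC15A4 and SLC36A1 lower, counts too few to set apart from the 33.8% higher and 32.7% lower of all tested genes, with log2 fold changes between -0.22 and 0.46. SLC38A9, an arginine sensor for the growth kinase complex mTORC1, rose from 21.4 ± 1.45 to 29.4 ± 3.47 CPM (0.46, SE 0.09, edgeR adjusted p = 4.31e-05). PQLC2, an exporter of cationic amino acids, rose from 33.5 ± 1.94 to 39.8 ± 2.80 CPM (0.24, SE 0.07, adjusted p = 0.00369), a call lost against a minimum fold change of 1.2 (adjusted p = 0.556, range 0.000158 to 0.556). Against that minimum fold change 1 gene, SLC38A9, was higher and 0 were lower. With total counts 3 were higher and 0 lower, and without treated replicate 3 it was 2 and 0. SLC15A4 was not called under 8 of 13 alternatives (adjusted p 0.0274 to 0.738), CTNS under 5 (0.00532 to 0.489) and SLC36A1 under 4 (0.0113 to 0.680).

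Transcription factors and other regulators linked to amino acid transporter genes mostly rose. Of 13 listed and tested, 10 were called higher, 9 of them at least 2-fold, and 2 lower, where 33.8% of all tested genes were higher and 32.7% lower. NUPR1, with 5 counts in the DMSO and 129 in the treated libraries, passed the filter only through the treated libraries. Among the 12 genes averaging 5 CPM or more, which leaves it out, 9 were higher and 1 lower. The list was drawn up with earlier results of these data known, so its direction is not independent evidence. ATF4 rose from 302 ± 3.48 to 700 ± 13.3 CPM (1.21, SE 0.03, edgeR adjusted p = 2.09e-22). ATF5, a relative of ATF4, rose from 56.8 ± 3.38 to 434 ± 8.62 CPM, and TRIB3, a pseudokinase that restrains ATF4, from 101 ± 2.06 to 504 ± 40.9 CPM. NFE2L2, which encodes NRF2, a known activator of SLC7A11, rose by 0.75 on the log2 scale, and BACH1, a repressor at the same elements, had 100.5 and 103.5 CPM (adjusted p = 0.433). MYC, a known activator of SLC7A5 and SLC1A5, fell from 435 ± 2.19 to 309 ± 8.26 CPM (-0.49, SE 0.03). EIF2AK4, the kinase that senses uncharged transfer RNA, was the other that fell, by 0.12 on the log2 scale, and did not pass under 8 of 13 alternatives, over a range of adjusted p from 0.0318 to 1. With total counts BACH1 was called higher. NFE2L2, BACH1, MYC and EIF2AK4 were picked for naming only once their values were known.

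Genes that use or recycle the cystine brought in by SLC7A11 were called in both directions, in shares not far from those over all tested genes (33.8% higher, 32.7% lower). In the list of cystine use and the glutathione cycle 14 genes were tested, 7 were higher, TXN, OPLAH and CHAC2 were lower and 4 did not pass, with a median log2 fold change of 0.11. Against a minimum fold change of 1.2, 4 were higher and 2 lower, and TXN was not called under 5 of 13 alternatives (adjusted p 0.00126 to 1). CHAC1, which degrades glutathione, rose from 5.30 ± 0.880 to 49.4 ± 2.66 CPM (3.23, SE 0.10, edgeR adjusted p = 3.09e-21). GCLM, a subunit of the enzyme that starts glutathione synthesis, rose from 83.5 ± 3.67 to 129 ± 6.07 CPM (0.63, SE 0.05, adjusted p = 5.87e-12). Among 5 genes for turnover and partners of transporters, 4 were tested, 1 was higher and 2 were lower, too few to read against the 33.8% and 32.7% of all tested genes. OTUB1 (83.8 and 76.4 CPM, adjusted p = 0.0332) was not called under 8 of 13 alternatives (adjusted p 0.00208 to 1). NEDD4, a ubiquitin ligase of membrane proteins, rose from 37.1 ± 0.537 to 85.1 ± 5.89 CPM (2.29-fold, adjusted p = 2.50e-16), and its relative NEDD4L fell from 49.4 ± 2.24 to 36.2 ± 1.26 CPM (-0.45, SE 0.06, adjusted p = 6.29e-07).

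The authors' deposited table compares a group B with a group A that its header does not name. In the authors' deposited table the ratio of B to A for the 9 tested members lay between 1.27 for SLC1A5 and 3.94 for SLC1A4 and SLC7A11, and it was 24.0 for SLC7A3 (adjusted p = 0.0106).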

How the data were processed

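For each of the 6 libraries the authors deposited whole-number read counts by gene symbol, which were used unchanged. STAR, Cufflinks and DESeq2 and the build hg19 are listed without roles, per the submitters' processing notes, and libraries were made from 1000 ng RNA with a directional kit, per the labels' protocols. Counting program, strand setting and annotation: not given in the sources used here, so reads of a gene and an overlapping antisense gene may be mixed. Reads outside genes or ambiguous between them made up 13.2% to 15.3% of deposited counts and were left out. The authors deposited a table of fold ratios and adjusted p-values, used only beside the values computed here.

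Libraries were scaled with TMM, genes filtered with filterByExpr (minimum count 10), and tested with edgeR 4.0.16 in R 4.3.3, with treatment as the only term, two-sided. The SE is the log2 fold change divided by the root of F. DESeq2 1.42.0 and the other alternatives are described in the closing section. The 6 ratios were tested by exact permutation over libraries. The edgeR fit was run on simulated counts in which a small share of genes changed, equally up and down. That setting differs from these data, where most tested genes changed, so it does not test the scaling here. Replicates differed beyond counting noise in all pairs (chi-square per degree of freedom 2.38 to 6.22).

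The members, lists, ratios and motifs were chosen with earlier results of these data known. Named genes were all members, ATF4, the 4 largest rises and falls among changed other plasma membrane transporters averaging 1 CPM or more, and the 2 changed genes with the smallest p of each further list. Other genes, among them SLC7A6, SLC7A7, SLC7A8 and SLC7A10, were picked for naming once their values were known. Some single genes of the marker lists and of the exon overlaps are not reported here.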

Additional observations from a re-analysis of the deposited data

How the results depend on the processing

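The 9 tested members were called higher under all 13 alternatives of the fit: total counts, DESeq2 size factors, DESeq2's test, no filter, a mean of at least 5 CPM, a replicate block, a minimum fold change of 1.2, and each of the 6 libraries left out. The lowest log2 fold change was 0.35 (SLC1A5) and the highest 2.09 (SLC1A4). SLC38A2, counted above among the 6 members at least 2-fold higher, ranged from 0.98 to 1.10, so it was under 2-fold in some alternatives. Over all genes the number changed was 8198, and 4765 (2641 higher, 2124 lower) against a minimum fold change of 1.2, which asks for more than a difference from 0. It lay between 7668 and 8183 with a library left out. The replicate numbers are shared between groups, but same-numbered libraries did not deviate together (correlations -0.0674 to -0.000613), and with a replicate block 8050 genes and 9 members changed. The log2 ratio of SLC7A5 to SLC3A2 changed sign with treated replicate 1 or 3 left out, to -0.0240 and -0.0236, over a range from -0.0240 to 0.135 with each library left out. The cause was not tested, and the other 5 ratios kept their direction under every alternative run. With the replicate block their smallest possible p was 0.25. The median of the other plasma membrane transporters, -0.46 over 9 genes, was 0.53 over 20 genes without the filter on low counts. Depth limits SLC7A3, with 24 counts in all, and the precision of any list is limited by 3 libraries per group.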

Other observations

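A pair of further transporters, picked out after their values had been seen, were close to silent in DMSO and were not tested in the fit. SLC7A2, a carrier of arginine and lysine related to SLC7A1 and SLC7A3, had 0 counts in the DMSO libraries and 9, 20 and 8 in treated replicates 1, 2 and 3. Against a floor of 3 counts per library, its mean of 0.596 CPM was at least 3.80-fold higher. SLC38A3, a glutamine carrier known from liver and brain, had 1, 1 and 0 counts in DMSO and 7, 5 and 4 in treated replicates, a ratio of 7.97 with an exact 95% binomial interval of 1.87 to 71.5. Both genes had more counts in each treated library than in any DMSO library, as had SLC7A3. SLC7A2 was called higher by edgeR without a filter on low counts and by DESeq2 (adjusted p between 1.81e-06 and 8.85e-05), and SLC38A3 by edgeR without the filter (adjusted p = 0.0332) but not by DESeq2 (adjusted p = 0.0837). With 0 counts in DMSO, SLC7A2 entered these tests only through the treated libraries. Its calls, and that of SLC38A3 with 2 counts against 16, are not independent evidence.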
